A study of Capra hircus with 12 samples.

Results

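Postpuberty testes of black goats (Capra hircus) were compared with neonatal testes to ask which RNA loci differ between the earliest and the latest age of the series. All animals were labelled WT. There were 3 postpuberty libraries (titles D180) and 3 neonatal libraries (titles D3) of total RNA from whole testis, prepared with a lncRNA (long non-coding RNA) kit. The labels name no treatment and do not tie the replicates to separate animals, so the p-values below measure the spread between these samples, which may be technical. Libraries of prepuberty (D30, 3 libraries) and puberty (D90, 2 libraries) testes entered the fit for their share of the spread and are shown for their levels; puberty replicate 1 was not analysed here. The loci compared were those with an FPKM (fragments per kilobase of locus, scaled to library size) that reached 1 in 2 or more of the 6 libraries, which kept 11762 of 24116 listed loci.

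At birth the testis holds seminiferous cords of Sertoli cells, which nurse the germ line, and undifferentiated germ cells that have not entered meiosis, with Leydig cells between the cords. At puberty the germ cells enter meiosis and then form haploid spermatids, so that the tubules of the older testis are filled largely by germ cells. Spermatocytes and spermatids are known for transcribing unusually many loci, long non-coding RNAs among them, many of which are low or silent in other cells. In bulk tissue, fewer cells of a type and less RNA per cell cannot be told apart.

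The loci carry identifiers without gene names. MSTRG numbers are given by the transcript assembler StringTie to the loci it builds, and the other identifiers are the word gene with a number. None matched the gene table used (0 of 24116), so the labelled tissue could not be checked against its markers, no role can be given for a locus, and no sequence is shown.

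The tables held enough digits to recover the reads behind each value (recovered reads), the locus length used (implied length) and the library total used for scaling (scaling total). Scaling totals ran from 19128357 to 20535321 reads in neonatal and from 28124423 to 34719495 in postpuberty libraries. The listed loci took 22.3% to 25.6% of the total in neonatal and 16.3% to 18.0% in postpuberty libraries, and the rest of each library is outside the tables. At the median implied length of the tested loci, 2387 bases, 45.7 to 82.9 reads made up an FPKM of 1. Libraries of the same age differed by more than sampling noise, with a mean chi-square over loci of at least 15.8 for every pair. Loci with very many reads can raise this mean, so it does not describe a typical locus.

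More than 1 in 3 tested loci had a higher level in postpuberty testes, and fewer had a lower level. Calls were made for 4818 loci that rose and 2289 that fell, and 4655 of the 11762 did not pass (limma on log2(FPKM + 1), with a call at a Benjamini-Hochberg adjusted p under 0.05 and a log2 change of 1 or more in size). The background against which each locus below is read is therefore high: 60.4% of the tested loci were called, 41% as higher and 19.5% as lower. Among the 4655 loci that did not pass, 3237 had an adjusted p under 0.05 but a change under 1, and 1929 of these were lower in postpuberty testes. The change was between 1 and 2 for 3605 of the loci that rose and for 2015 of those that fell. A change of at least 3, which is 8-fold on this scale, was reached by 432 rises and 35 falls, and a change of at least 5 by 74 rises and 0 falls. The scale of log2(FPKM + 1) understates the change of low loci.

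The groups of libraries separated for most loci. All 3 postpuberty libraries lay above all 3 neonatal ones for 6052 loci (51.5% of those tested) and below them for 4140 (35.2%), so that 86.7% of the tested loci had no overlap. Among the called loci, 24 rises and 12 falls had overlapping groups. Pearson correlations of log2(FPKM + 1) over the tested loci were 0.93 to 0.95 between neonatal libraries and 0.92 to 0.93 between postpuberty libraries, but -0.14 to -0.05 between the ages. Over all 24116 listed loci the correlations between the ages were 0.10 to 0.18, and over the 2120 loci that reached an FPKM of 1 in 2 or more libraries of each age they were 0.45 to 0.50. The points of these correlations are loci, and loci are not independent replicates.

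**Figure D1:**
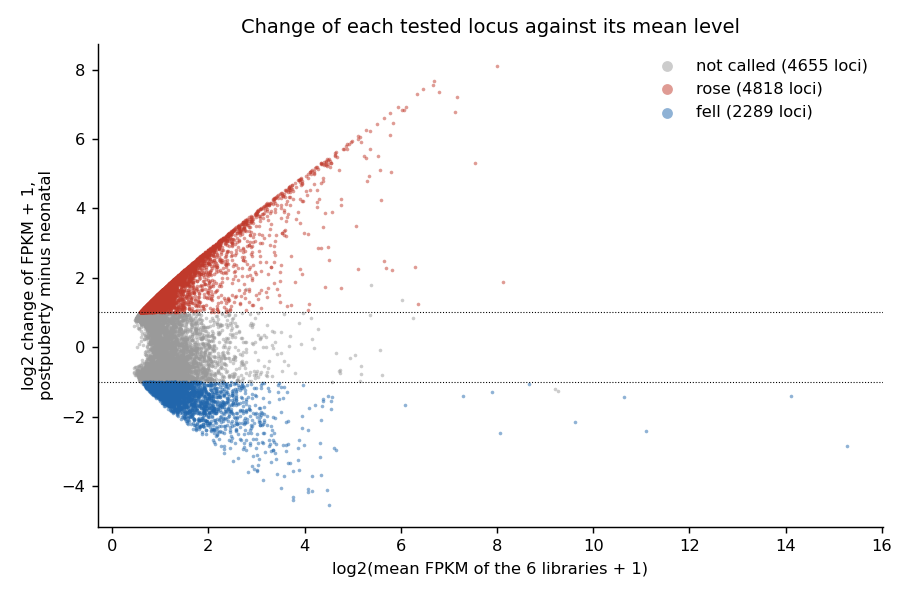
Each point is 1 of the 11762 tested loci. The x axis is log2 of the mean FPKM of the 6 libraries plus 1, the y axis is the log2 change of postpuberty minus neonatal testes, and the dotted lines mark changes of 1 and -1. The 4818 loci that rose reach changes of up to 8.11, along an upper edge set by loci at or near 0 in neonatal libraries, and the 2289 that fell reach -4.55.

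The filter itself shapes these counts. Of the tested loci, 5957 passed through postpuberty libraries, reaching an FPKM of 1 in 2 or more of those and in fewer than 2 neonatal ones, and 3519 passed in the same way through neonatal libraries. Such loci had to differ between the ages to some degree, and they held 4638 of the 4818 rises and 1837 of the 2289 falls. Another 166 loci had 1 library of each age at that level and gave 0 calls. In the 2120 loci present at both ages, the balance was the other way: 180 rose, 452 fell and 1488 did not pass, with a median log2 change of -0.30, against 0.60 over all tested loci. This order depended on the scaling. Median of ratios scaling gave 316 rises and 215 falls among the loci of both ages (median log2 change 0.12), rescaling to TPM gave 725 and 195 (0.57), and quantile normalization gave 126 and 718 (-0.62). At the edge of the filter stood MSTRG.60782, whose second-highest FPKM was 1.00016, and just outside it MSTRG.409261, with 0.999748.

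The scaling also moved the split over all tested loci. Of the calls, 67.8% were rises with the FPKM as deposited, 43.5% under quantile normalization and 83.3% under median of ratios scaling. The median log2 change of all tested loci was 0.60 as deposited, 0.88 under median of ratios scaling, 2.07 under TPM and 0.13 under quantile normalization. Under TPM the values are several times larger, so the pseudocount of 1 weighs less, and the sum of FPKM by which TPM divides was 127680 ± 1823 (SD, n = 3) in neonatal and 61228 ± 2606 (n = 3) in postpuberty libraries. Within these sums, MSTRG.335283 held a mean of 69775 in neonatal and 9708 in postpuberty libraries, and MSTRG.178147 held 25610 and 9956.

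**Figure D2:**
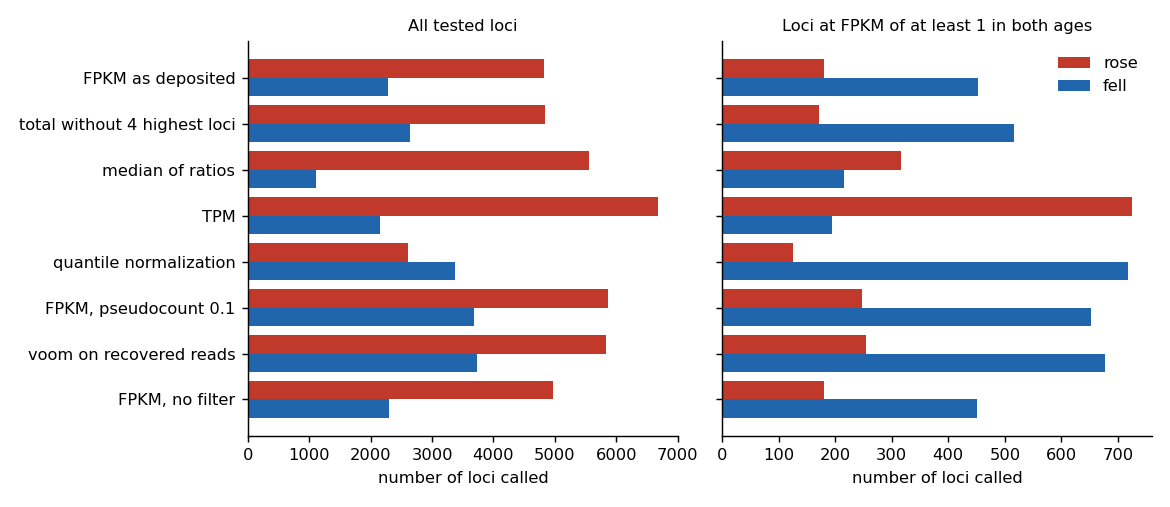
Bars give the number of loci called higher (red) and lower (blue) in postpuberty testes under each scaling, pseudocount or test, for all tested loci on the left and for the loci that reached an FPKM of 1 in 2 or more libraries of each age on the right. Rises outnumber falls on the left except under quantile normalization (2600 against 3380), whereas on the right they do so only under median of ratios scaling and TPM.

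More of the listed loci had any read in postpuberty testes. In neonatal libraries 15368, 15975 and 15955 loci had a read, and in postpuberty libraries 21780, 21410 and 21748 did. The means were 15766 ± 345 (SD, n = 3) and 21646 ± 205 (n = 3), a difference of 5880 loci with no overlap between the ages. After thinning to the smallest scaling total the difference was 5365 loci. An exact two-sided permutation test gave p = 0.1, the smallest that 3 libraries against 3 allow. Loci with an FPKM of at least 1 numbered 5523, 6325 and 6034 in neonatal and 7962, 8018 and 9226 in postpuberty libraries.

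Reads were spread over more loci in postpuberty testes. In neonatal libraries, 30, 29 and 26 loci held 50% of the reads on listed loci, and in postpuberty libraries 306, 388 and 401 did. The loci that rose made up 0.347% ± 0.0251 (SD, n = 3) of neonatal scaling totals and 8.49% ± 0.544 (n = 3) of postpuberty ones. Those that fell took 19.0% ± 1.43 and 4.13% ± 0.471. The 4 most abundant loci that fell accounted for 10.004% ± 0.931 in neonatal and 2.66% ± 0.472 in postpuberty libraries, and the other 2285 loci that fell for 8.99% ± 0.498 and 1.47% ± 0.0270. Since these classes were called on the same libraries, the direction of each share is fixed by the choice, and the shares describe only its size.

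The libraries of the ages in between show when these classes stood at which level. The median FPKM of the loci that rose was at most 0.0109 in each neonatal library, 0.00422 to 0.0233 in prepuberty, 1.36 and 1.49 in the puberty libraries and 2.05 to 2.42 in postpuberty. Loci that fell had a median FPKM of 2.67 to 3.09 in neonatal, 1.80 to 2.23 in prepuberty, 0.318 and 0.442 in puberty and 0.374 to 0.408 in postpuberty libraries. Both classes were chosen on the neonatal and postpuberty libraries, and most of their loci passed the filter through 1 of those ages. That choice favours a puberty level under the postpuberty one for loci that rose and a prepuberty level under the neonatal one for loci that fell, so no order between an age used in the choice and one outside it is read from these medians. Between prepuberty and puberty, which entered that choice only through the shared spread of the fit, the loci that rose had a higher median in both puberty libraries than in any prepuberty library, and the loci that fell a lower one. Of the loci that rose, 71.6% and 63.6% had an FPKM of at least 1 in the puberty libraries and 4.11% to 4.55% in the prepuberty ones. For all tested loci these shares were 48.1% and 42.4% in puberty and 34.6% to 38.9% in prepuberty libraries.

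**Figure D3:**
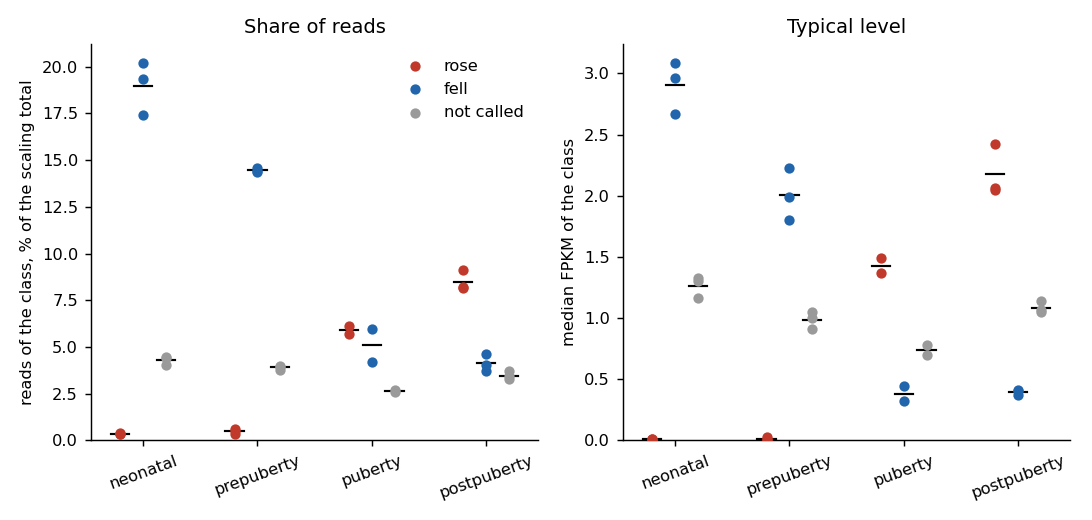
Points are libraries and black lines are the means of an age. The left panel gives the share of the scaling total taken by the loci that rose (red), fell (blue) or were not called (grey) in postpuberty against neonatal testes, and the right panel gives the median FPKM of each class. The falling class goes from 19.0% of the total in neonatal to 4.13% in postpuberty libraries, while the rising class goes from 0.347% to 8.49%.

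Among the loci that rose, 4 had the highest mean FPKM. All 4 carry a gene number. gene21247 (implied length 372 bases) was already abundant at birth, with 127, 116 and 117 FPKM in the neonatal libraries and 461, 412 and 447 in the postpuberty ones. It was 3.67-fold higher in postpuberty testes, with 1.87 ± 0.13 (SE) as its log2 change (limma adjusted p = 2.11e-07). It stood at 140 to 164 FPKM in prepuberty libraries and at 437 and 424 in the puberty ones, within the postpuberty range.

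gene6709 (772 bases) was low but clearly present in neonatal testes, at 8.14, 8.12 and 8.46 FPKM (377 reads in all). The postpuberty libraries held 387, 358 and 349 FPKM. That is 44.3-fold higher, with 5.31 ± 0.13 (SE) as its log2 change (limma adjusted p = 1.30e-10). Every neonatal library thus held it at a low, even level, and the spread within either age was small beside the difference.

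gene21344 (1040 bases) stood at 0.468, 0.980 and 1.51 FPKM in the neonatal and at 285, 316 and 255 in the postpuberty libraries, with 60 and 27575 reads in all. Its log2 change was 7.20 ± 0.29 (SE, limma adjusted p = 3.96e-09). In the puberty libraries it stood at 334 and 376 FPKM, above all 3 postpuberty libraries. gene13049 (313 bases) had 3, 6 and 7 reads in the neonatal libraries, or 0.467, 0.976 and 1.17 FPKM. The postpuberty libraries held 503, 506 and 518 FPKM, which gave the largest log2 change of all tested loci, 8.11 ± 0.26 (SE, limma adjusted p = 8.63e-10). These 2 loci were thus read in every neonatal library, at 0.467 to 1.51 FPKM. The medians of all tested loci in those libraries were 0.628 to 0.801 FPKM.

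The other 3 of the 4 largest rises were at or near 0 at birth. MSTRG.198760 (838 bases) had 0 reads in the neonatal libraries and 187, 238 and 188 FPKM in the postpuberty ones. Set against 3 reads pooled over the 3 neonatal libraries, used as the floor for a count of 0, it was at least 3382-fold higher. gene4459 (446 bases) also had 0 neonatal reads, with 170, 173 and 179 FPKM later, and was at least 1534-fold higher against the same floor. Its postpuberty libraries differed little from each other. MSTRG.381237 (462 bases) had 2 neonatal reads, both in replicate 3, and 208, 213 and 186 FPKM in postpuberty testes. The ratio of pooled reads per scaling total was 2775, with an exact 95% interval of 768 to 22921 that covers counting error only. Floors and intervals here count reads, which may include copies of the same molecule.

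**Figure D4:**
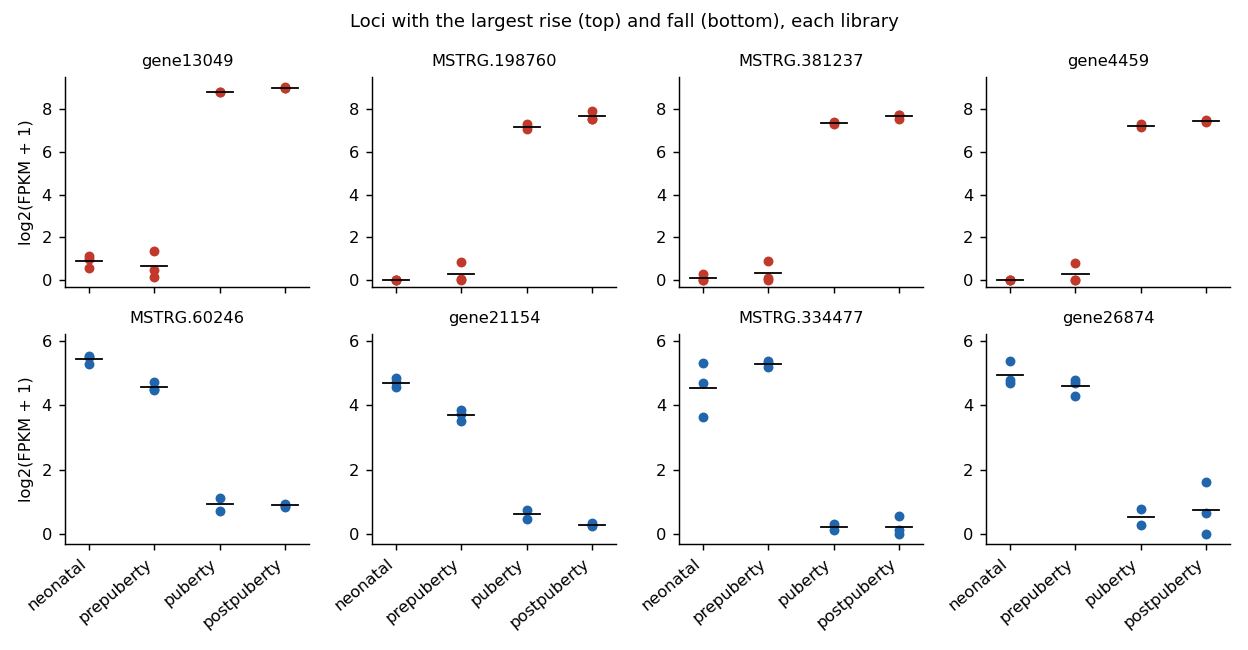
Points are libraries, black lines are the means of an age, and the y axis is log2(FPKM + 1). The upper panels show the 4 loci with the largest rise from neonatal to postpuberty testes, and the lower panels the 4 with the largest fall, taken from called loci with no overlap between the groups. In all 8, both puberty libraries sit near the postpuberty level and the 3 prepuberty libraries lie far closer to the neonatal one.

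Loci with no neonatal read formed a large class. Of the listed loci 5443 had none, and 1733 of these passed the filter, all through postpuberty libraries. An FPKM of at least 1 in all 3 postpuberty libraries was found for 1122 of the 1733. The median of the lower bounds on their fold, each against the floor of 3 reads, was 51.9, and the bound reached 100 for 501 loci and 1000 for 12. After MSTRG.198760 and gene4459, the most abundant of them included MSTRG.299092 (840 bases), with 135, 189 and 155 FPKM and a bound of at least 2651-fold. The puberty libraries had a read for 98.8% and 97.5% of the 1733 loci, prepuberty replicates 2 and 3 for 11.5% and 10.2%, and prepuberty replicate 1 for 23.6%. Over all tested loci, 1.56% and 2.51% had no read in the puberty libraries, and 18.5% to 23.0% had none in the prepuberty ones. The puberty shares of this class are thus close to those of the tested loci in general, and only the prepuberty shares differ. Prepuberty replicate 1 differed from its replicates in trace reads of these loci: it held 0.801 FPKM of MSTRG.198760, against 0.0468 and 0 in the other 2. It was not apart over all tested loci, where its Pearson correlations with them were 0.957 and 0.967, against 0.953 between them. Prepuberty replicate 1 takes no part in the means compared, and with it left out of the fit 4817 loci rose and 2288 fell.

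The reverse class was small. No postpuberty read was found for 933 listed loci, of which 34 passed the filter and 24 were called. In the class with no neonatal read, 1617 of 1733 were called. The filter and a lack of reads at 1 age favour a call. Postpuberty scaling totals were larger, and the sizes of both classes were not adjusted for depth. MSTRG.355962 (4578 bases) led the class with no postpuberty read. It held 14.0, 5.07 and 9.17 FPKM in the neonatal libraries (2571 reads in all) and 0 reads in the postpuberty ones. It was at least 1336-fold lower in postpuberty testes against a floor of 3 reads over those libraries. MSTRG.94942 (5733 bases) had 2.66, 0.782 and 4.54 FPKM and was at least 473-fold lower, and MSTRG.133035 (286 bases) had 3.41, 9.80 and 2.74 FPKM (90 reads) and was at least 47.2-fold lower. Their neonatal libraries differed among themselves by more than 2-fold. All 3 had reads in the prepuberty libraries, such as 1.99 to 5.75 FPKM for MSTRG.355962, and for each the prepuberty range overlapped the neonatal one. They were chosen for a high neonatal mean and no postpuberty read, so no order of prepuberty against those ages is read.

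The loci that fell include the most abundant of the listed loci in neonatal libraries. MSTRG.335283 (355 bases) held 71710, 69531 and 68083 FPKM at birth and 10540, 10631 and 7954 in postpuberty testes, 7.19-fold lower (limma adjusted p = 1.93e-07). MSTRG.385323 (7781 bases) held 2690, 3964 and 4409 FPKM, then 685, 661 and 662, which is 5.51-fold lower (limma adjusted p = 6.77e-07). Neither had overlapping groups, and the spread of MSTRG.385323 lay mostly in neonatal replicate 1.

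The other 2 abundant falls were smaller. MSTRG.178147 (1509 bases) went from 24040, 25556 and 27236 FPKM to 12834, 7253 and 9781 (log2 change -1.40 ± 0.27 SE, limma adjusted p = 0.000493). MSTRG.180257 (3429 bases) went from 2100, 2344 and 2496 FPKM to 943, 725 and 888 (log2 change -1.45 ± 0.19 SE, limma adjusted p = 2.56e-05). The groups of both loci were apart. Their calls nevertheless ended under median of ratios scaling (log2 changes -0.74 and -0.79) and TPM (-0.34 and -0.39), and their direction reversed under quantile normalization (0.50 and 0.65). Quantile normalization also ended the calls of MSTRG.335283 (-0.50) and MSTRG.385323 (-0.65). It gives every library the same set of values, so among the highest loci it can show only changes of rank. The changes of MSTRG.178147 and MSTRG.335283 were equal and opposite, as were those of MSTRG.180257 and MSTRG.385323. These quantile values therefore say nothing on the level of these loci.

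The largest falls on the log2 scale lay at moderate levels. MSTRG.60246, with an implied length of 28252 bases, held 44.5, 44.7 and 38.0 FPKM in neonatal and 0.843, 0.807 and 0.905 in postpuberty libraries. That is 49.8-fold lower (log2 change -4.55 ± 0.14 SE, limma adjusted p = 4.96e-10), on 71140 and 2242 reads. It is thus among the most deeply read of the loci that changed strongly. gene21154 (6148 bases) held 22.6, 27.5 and 25.1 FPKM and then 0.178, 0.278 and 0.210, 113-fold lower (log2 change -4.41 ± 0.13 SE, limma adjusted p = 4.96e-10). Both loci stood lower in each prepuberty library (21.1 to 25.1 and 10.3 to 13.3 FPKM) than in any neonatal one. Their choice by the largest fall from the neonatal level favours that order, so it is not read as a result.

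Other strong falls rested on few postpuberty reads. MSTRG.334477 (338 bases) held 38.3, 11.5 and 24.7 FPKM at birth and 0.0852, 0 and 0.489 later, or 502 and 6 reads (limma adjusted p = 4.48e-07). In prepuberty it held 35.7 to 40.4 FPKM, within or above its neonatal range. gene26874 (125 bases) had 24.9, 40.3 and 26.3 FPKM against 2.07, 0.569 and 0, and gene8868 (122 bases) had 33.1, 30.5 and 34.7 against 0.472, 2.04 and 0.542. Each of the latter pair had 11 postpuberty reads in all. Their log2 changes were -4.19 ± 0.35 (SE, limma adjusted p = 8.51e-07) and -4.15 ± 0.24 (SE, limma adjusted p = 5.07e-08). Such short implied lengths can be a fraction of the true length. The recovered reads would then be the same fraction of the true reads, and the ratio between libraries would not change.

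Some abundant loci did not pass the test. MSTRG.412719 (1414 bases) held 510, 996 and 1103 FPKM in neonatal and 418, 229 and 417 in postpuberty libraries. Although its groups were apart, it did not pass with the spread of all ages (log2 change -1.27 ± 0.84 SE, limma adjusted p = 0.172); prepuberty libraries ranged from 59.9 to 537 FPKM. It did pass when only the 6 libraries were fitted (limma adjusted p = 0.0118). MSTRG.407379 (1284 bases) ranged from 279 to 1399 FPKM in neonatal and from 160 to 539 in postpuberty libraries, so its groups overlapped (log2 change -1.21, limma adjusted p = 0.0745); it passed without neonatal replicate 3 (limma adjusted p = 0.00599) or postpuberty replicate 3 (0.0367).

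gene25279 (3277 bases) was the steadiest of these, at 57.9, 53.0 and 50.01 FPKM in neonatal and 96.2, 97.6 and 95.8 in postpuberty testes. The groups were well apart, and the locus fell short only by the size of its log2 change, 0.84 ± 0.12 (SE, limma adjusted p = 4.49e-05). It passed under median of ratios scaling (1.49) and TPM (1.91) and reversed under quantile normalization (-0.73). MSTRG.413436 (402 bases) held 37.6, 12.8 and 52.5 FPKM and then 33.1, 168 and 83.1, with overlapping groups (log2 change 1.36, limma adjusted p = 0.0884). It passed without postpuberty replicate 1 (limma adjusted p = 0.0275), under median of ratios scaling (2.00) and under TPM (2.45), and changed sign under quantile normalization (-0.14).

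The 3 loci with the largest change among those with an adjusted p of at least 0.05 varied widely within an age. MSTRG.406436 (2460 bases) held 2.55, 1.24 and 38.5 FPKM in neonatal and 9.87, 187 and 5.51 in postpuberty libraries (log2 change 1.80 ± 1.45 SE, limma adjusted p = 0.258). A single library of each age was high. MSTRG.198712 (283 bases) held 0.344, 0.180 and 10.2 FPKM and then 7.02, 3.89 and 13.8 (limma adjusted p = 0.0769), and without neonatal replicate 3 it passed at a change of 2.73 (limma adjusted p = 0.00198). It also passed under median of ratios scaling (2.05), TPM (3.74) and voom on recovered reads (2.79). The locus MSTRG.99516 (1464 bases) held 0.0665, 0.174 and 0.0714 FPKM and then 4.82, 0.0243 and 5.37 (limma adjusted p = 0.0671), and without postpuberty replicate 2 it passed with 2.46 (limma adjusted p = 0.00648), as it did when only the 6 libraries were fitted (limma adjusted p = 0.0486).

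Level and length differed between the classes. Of the 4509 loci with a mean FPKM under 1 over the 6 libraries, 45.1% rose and 8.92% fell. From 1 to 3 (5638 loci) 35.7% rose and 24.4% fell, and from 3 to 10 (1330 loci) 43.4% and 34.0%. Between 10 and 30 (220 loci) 67.3% rose and 22.7% fell, and between 30 and 100 (46 loci) 76.1% and 2.17%. Among the 19 loci at 100 or more 8 rose, 9 fell and only MSTRG.412719 and MSTRG.407379 were not called. The mean uses the same 6 libraries as the filter and the calls. These shares therefore depend on that choice and are not read as an effect of level. Median implied length was 2006 bases for loci that rose, 3505 for loci that fell and 2387 for all tested loci. When the loci were split by length into 5 equal parts, the shortest part (114 to 876 bases) had 44.7% rises and 15.3% falls, and the longest part (6777 to 164250 bases) had 32.1% and 30.3%. Length is tied to depth, since a longer locus has more reads at the same FPKM. By identifier, the 933 tested loci with a gene number had 28.0% rises and 24.7% falls, and the 10829 MSTRG loci had 42.1% and 19.0%; the former were shorter (median 956 against 2600 bases) and higher at birth (median of 1.96 against 0.683 FPKM).

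Loci with neighbouring assembly numbers changed alike. The assembler gives its numbers in sequence, but no table used here says how far apart in the genome 2 loci with adjacent numbers lie, or whether they are pieces of the same transcript. Of tested MSTRG loci, 1090 pairs had numbers that differ by 1. The log2 changes of the 2 loci of such pairs had a Pearson r of 0.47 across pairs, which share the same 6 libraries. The r was 0.42 at a number distance of 2 (846 pairs), 0.33 at 5 (589), 0.15 at 10 (524) and 0.03 at 50 (339). Where the first locus of an adjacent pair fell, the second also fell in 60.6% of 274 pairs, against 23.9% over all adjacent pairs. Where the first rose, the second also rose in 55.7% of 334 pairs, against 29.7%. At a distance of 100 the shares were 13.2% of 53 pairs against 19.5% for falls and 35.3% of 116 against 43.3% for rises.

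**Figure D5:**
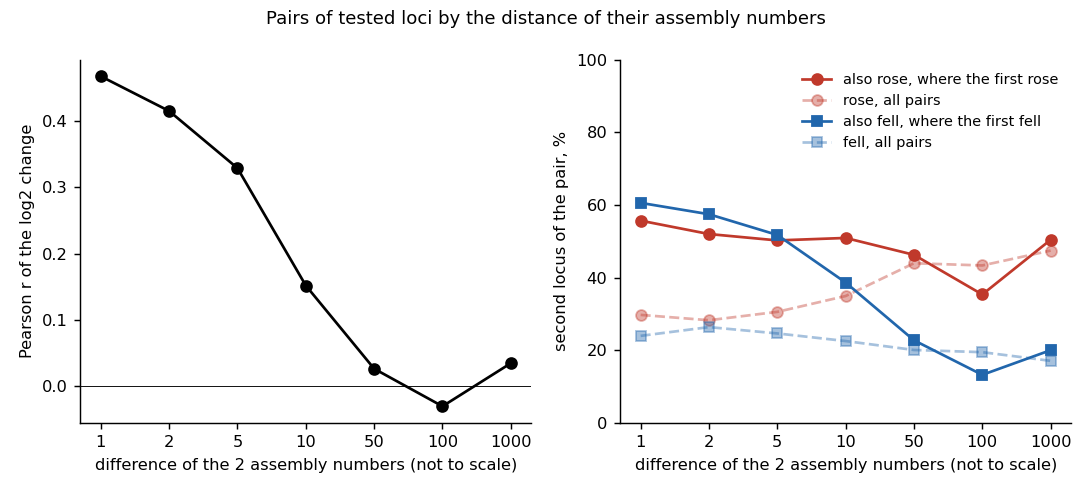
Pairs of tested MSTRG loci are grouped by the difference of their assembly numbers (x axis, not to scale). The left panel gives the Pearson r of the log2 change across pairs, and the right panel the percentage of pairs whose second locus rose or fell, given the call of the first (solid) or over all pairs (dashed). The r declines from 0.47 at a difference of 1 to 0.03 at 50, and the solid and dashed lines come together between 10 and 50.

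Only 4 unbroken runs of at least 4 tested loci with consecutive numbers and the same call were found, and they were looked up after the values were seen. The longest holds the 5 loci from MSTRG.202531 to MSTRG.202535, which all fell, with log2 changes of -1.90 to -1.15. Within it MSTRG.202534 (10352 bases) went from 3.83, 4.51 and 4.14 FPKM in neonatal to 0.398, 0.416 and 0.329 in postpuberty libraries. MSTRG.4671 to MSTRG.4674 fell with -1.68 to -1.26, among them MSTRG.4673 (653 bases) with 1.94, 2.65 and 2.08 FPKM at birth and 0 reads later. MSTRG.116354 to MSTRG.116357 also fell, with -1.60 to -1.02. In the single run that rose, MSTRG.293173 to MSTRG.293176, log2 changes were 1.02 to 2.05, and MSTRG.293176 (6297 bases) had 0 neonatal reads and 2.82, 2.85 and 3.83 FPKM in postpuberty testes. The 4 loci of this run thus had unlike levels at birth, from 0 up to 0.787 FPKM in 1 library of MSTRG.293173, and all rose.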

How the data were processed

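The authors deposited 1 table per library with an FPKM value per locus. The submitters' processing notes name StringTie 2.1.1, which assembles transcripts, and HISAT2 2.1.0, which aligns reads. For build, annotation, counter and filters the entry is: not given in the sources used here. Because FPKM steps by what 1 read is worth, whole reads, whole locus lengths and library totals were recovered for 24116 of 24116 loci (100.0%), within 3 times the rounding of the deposited value. The totals lay within 0.0476 of whole numbers. The smallest whole length that fitted was taken for each locus, so recovered lengths and reads can be a fraction of the true ones. Values were analysed as log2(FPKM + 1) with limma 3.58.1 in R 4.3.3, with 1 mean per age over 11 libraries (7 residual degrees of freedom), a variance trend and two-sided tests adjusted over the 11762 loci. The procedure was tested on simulated reads in which only a small part of the loci changed. That setting is unlike these data, so the test does not give the error rate of the calls here. Named loci follow a rule: in each direction the 4 called loci with the highest mean and the 4 with the largest change without overlap, the 4 most abundant not called, 3 gene numbers in each direction, the 3 most abundant with no read at 1 age, and the 3 largest changes with an adjusted p of at least 0.05. The 9 lists of testis cell markers (44 genes) had 0 matches and were not tested. The loci, lists and rules were chosen with earlier results of these data known.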

Additional observations from a re-analysis of the deposited data

How the results depend on the processing

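Leaving out 1 of the 6 libraries gave 4497 to 4844 rises, 2224 to 2509 falls and a difference of 5681 to 5998 in loci with a read. Falls numbered 3681 with a pseudocount of 0.1, 3724 with voom on recovered reads, 1117 under median of ratios scaling and 4218 with no fold threshold (added after seeing the data). Rises numbered 2600 under quantile normalization. All other counts of rises and falls over all tested loci stayed within 1.5 times of those reported. Among the 2120 loci present at both ages, the 180 rises and 452 falls moved further under median of ratios scaling (316 and 215) and TPM (725 and 195), and the falls under quantile normalization (718). Over all tested loci, 0 were called in opposite directions. Signs reversed only under quantile normalization, for MSTRG.178147 (0.50), MSTRG.180257 (0.65), gene25279 (-0.73) and MSTRG.413436 (-0.14). For MSTRG.178147 and MSTRG.180257 the reversal is a change of rank among the highest loci and says nothing on level. Of the 27 named loci, 17 changed neither sign nor call under any alternative in which they were tested. Among these, MSTRG.94942 was not tested where an FPKM of at least 1 was required in all 3 libraries of an age. The cause of these shifts was not tested.

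Neonatal and postpuberty libraries share replicate numbers in the labels, but same-numbered libraries did not deviate together (correlations of -0.029, -0.010 and -0.033), and no library correlated best with the same-numbered library of the other age. With a replicate block 4823 loci rose and 2289 fell, and MSTRG.198712 (adjusted p = 0.0198 by limma) and MSTRG.99516 (0.0378) passed.

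Depth limits the lowest loci: 381 of the rises and 199 of the falls rest on under 100 recovered reads in the 6 libraries.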
